A study of Mus musculus with 12 samples.

Results

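A set of 8 genes of the IL-6 family was followed through whole BM of WT, DF, TF and TFD mice. They were taken by name from the 12199 genes of the count table: the ligand genes Il6 and Osm, the receptor genes Il6ra, Il6st, Il31ra and Il27ra, and, downstream of the receptors, Stat3 and Socs3. All 8 passed the filter on low counts and were tested among 12175 genes. Cytokines of this family signal by bringing together receptor chains that hold JAK kinases, which phosphorylate STAT3. IL-6 binds IL-6Rα, the product of Il6ra, and the complex recruits gp130, the signalling chain encoded by Il6st that OSM, IL-27 and other members of the family share. In BM, signals of this family act on blood cell formation in inflammation and infection, and SOCS3, which active STAT3 induces, switches gp130 signalling off again.

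RNA was sequenced from whole BM of C57BL/6 mice in 4 groups, after globin transcripts had been depleted. DF mice were Dnmt3aFlox/+:MxCre with 1 Flt3 ITD allele, TF mice were Tet2+/- with Flt3ITD/+, TFD mice carried all 3 changes, and the controls were wild type. All mice, WT included, had received poly(I:C) as young adults, and the study's methods place the analysis some weeks after the injections. Library totals ranged from 8274153 to 15900904 counts in 3 WT, 3 DF, 3 TF and 2 TFD libraries. The Dnmt3a allele is deleted by a Cre under the interferon-inducible Mx promoter, which acts in many cell types, while the Tet2 and Flt3 alleles are germline. WT mice were obtained from a core facility and the mutants were bred in crosses, so the mutations and the source of the mice cannot be told apart. The labels number the samples of a group but do not state how each mouse was drawn, so p values measure the spread between these samples. Leukocyte markers were high in each library: Ptprc and Coro1a, the highest of 3 leukocyte markers, had mean levels of 10.51 and 9.84 log2 CPM in WT.

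The 3 receptor genes Il6st, Il31ra and Il6ra were upregulated in all 3 mutant genotypes, so the sequences before their starts are shown. In RefSeq (GRCm38.p6), 6 of the 8 genes had a promoter entry of 300 bases, 250 before and 50 after the start; Osm and Il27ra had none. The 250 bases before the start are given 5′ to 3′, for Il6st at chr13:112463820-112464069, plus strand, for Il31ra at chr13:112580663-112580912, minus strand, and for Il6ra at chr3:89913197-89913446, minus strand. Capitals mark a match to the STAT motif TTCNNNGAA, which reads the same on both strands.
Il6st: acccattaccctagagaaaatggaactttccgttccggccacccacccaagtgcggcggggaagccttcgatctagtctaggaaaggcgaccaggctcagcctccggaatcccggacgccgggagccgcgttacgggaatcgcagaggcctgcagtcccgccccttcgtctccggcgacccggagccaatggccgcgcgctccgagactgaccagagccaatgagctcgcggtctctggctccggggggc
Il31ra: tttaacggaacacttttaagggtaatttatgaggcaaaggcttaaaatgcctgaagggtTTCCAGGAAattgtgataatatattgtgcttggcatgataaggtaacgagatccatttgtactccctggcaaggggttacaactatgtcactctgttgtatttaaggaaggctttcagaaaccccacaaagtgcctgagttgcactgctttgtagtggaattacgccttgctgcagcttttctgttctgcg
Il6ra: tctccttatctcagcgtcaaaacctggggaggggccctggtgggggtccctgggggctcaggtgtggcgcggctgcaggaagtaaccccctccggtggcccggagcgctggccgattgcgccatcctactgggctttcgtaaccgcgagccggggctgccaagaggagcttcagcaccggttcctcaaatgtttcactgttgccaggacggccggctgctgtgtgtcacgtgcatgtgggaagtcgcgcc

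The 300-base windows of Il6st and Il6ra were rich in CpG, the dinucleotide that DNMT3A methylates and at which TET2 oxidizes the mark. Il6st held 33 CpG, more than 91.4% of the 32544 windows of that length, and Il6ra held 25, more than 81.4% of them. Il31ra held 6, more than 43.2%. The window of Socs3 held 31, more than 89.3%, that of Stat3 15, more than 65.1%, and that of Il6 3, more than 23.1%. Neither Socs3 nor Stat3 was called in any comparison, so a CpG-rich window did not go with a call among these genes in general. Methylation was not measured in these libraries. The STAT motif was found in the windows of Il31ra and Socs3 and in 8.33% of all windows, and not in those of Il6, Il6ra, Il6st or Stat3. The Socs3 match lay 154 to 146 bases before the start and is shown in capitals with its flanks (chr11:117969497-117969535, minus strand), because Socs3 is the feedback gene of the pathway. The letters of a match do not show that a factor was bound.
Socs3: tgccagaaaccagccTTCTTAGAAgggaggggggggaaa

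Against WT, edgeR called 4 of the 8 genes in DF, 3 higher and 1 lower, where 21.0% of all genes tested were called higher and 16.6% lower. In TF, 6 were called, 3 higher and 3 lower, beside 19.0% and 15.6% of all genes. In TFD, 6 were called, again 3 higher and 3 lower, beside 14.7% and 11.6%. The median log2 fold change of the 8 genes was 0.26 in DF, −0.36 in TF and −0.25 in TFD, and that of all genes tested was 0.05, 0.02 and 0.01. The 3 comparisons share the WT libraries. A call is an adjusted p under 0.05 over all genes tested. The split of all genes called in DF was 2560 higher and 2023 lower with TMM factors, and 1926 and 2622 when only library totals were used.

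**Figure D1:**
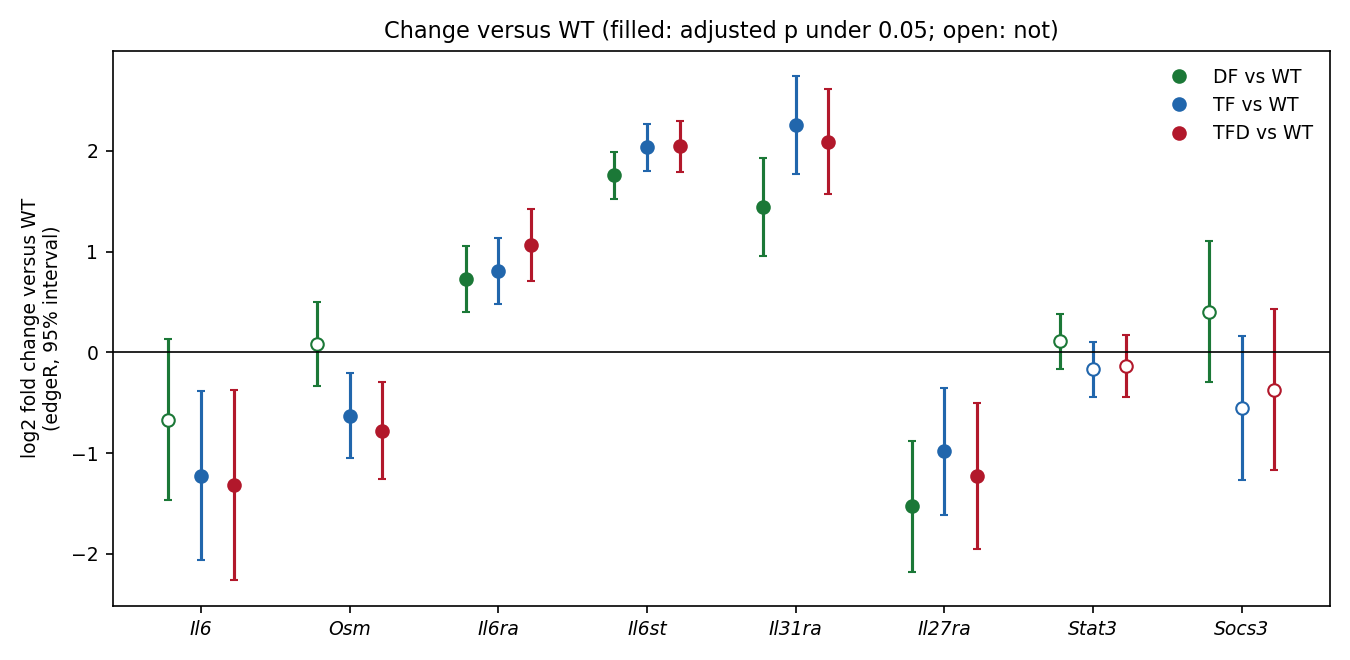
Log2 fold change of each IL-6 family gene (y axis) in DF, TF and TFD versus WT, with the 95% interval from edgeR; filled points passed an adjusted p of 0.05 and open points did not. Il6ra, Il6st and Il31ra lie above 0 and Il27ra below 0 in each comparison, while Il6 and Osm have filled points only in TF and TFD and Stat3 and Socs3 have none.

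The ligand genes were examined first. Il6 (chromosome 5, 30013161 to 30019968, plus strand, mm10) encodes IL-6, the cytokine that drives acute-phase and inflammatory responses. Its level was 2.04, 1.17 and 1.34 log2 CPM in the WT libraries, 0.54, 0.70 and 1.43 in DF, 0.48, −0.25 and 0.73 in TF, and 0.55 and −0.13 in TFD (replicates in the order of their numbers). All TF and TFD libraries lay below the lowest WT library, and DF replicate 3 lay within the WT range. These levels rest on 10 to 50 reads per library. Il6 was downregulated 2.33-fold in TF (log2 fold change −1.22, SE 0.39, adjusted p = 0.0268) and 2.50-fold in TFD (−1.32, SE 0.44, adjusted p = 0.0404). In DF the log2 fold change was −0.67 (SE 0.37, adjusted p = 0.17). The call in TF was lost without WT replicate 1 (−0.90, adjusted p = 0.121), TF replicate 1 (−1.28, adjusted p = 0.0628) or TF replicate 2 (−0.98, adjusted p = 0.0994). The call in TFD was lost without WT replicate 1, WT replicate 3, DF replicate 2, TF replicate 1 or either TFD library, with log2 fold changes from −1.73 to −0.995 and adjusted p values up to 0.183.

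Osm (chromosome 11, 4236785 to 4241026, plus strand) encodes oncostatin M, a cytokine made by myeloid cells and a target of STAT5. It was far more abundant than Il6 per gene length, with a mean of 124 ± 28.8 RPKM in WT against 2.71 ± 0.93 for Il6 (SD, n = 3). Its level was 8.21, 7.55 and 7.82 log2 CPM in WT, 8.01, 7.55 and 8.26 in DF mice, 7.45, 7.04 and 7.25 in TF mice, and 7.25 and 6.95 in TFD mice. DF libraries spanned nearly the range of WT, and all TF and TFD libraries lay below both. Osm was downregulated in TF by 1.55-fold (log2 fold change −0.63, SE 0.19, adjusted p = 0.0245) and in TFD by 1.72-fold (−0.78, SE 0.22, adjusted p = 0.0208), and in DF the log2 fold change was 0.08 (95% interval −0.34 to 0.50). Without WT replicate 1 the calls were lost (−0.44 with an adjusted p of 0.101 for TF; −0.59 with an adjusted p of 0.0679 for TFD), as they were without TF replicate 2 (−0.53, adjusted p = 0.09) and without TFD replicate 2 (−0.63, adjusted p = 0.136), respectively.

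Osm was the ligand gene that came nearest to a difference between DF and TF. Its log2 fold change in DF versus TF was 0.71 (SE 0.19, adjusted p = 0.0507), and the 3 DF libraries lay above the 3 TF libraries, though how many of all genes were so separated was not counted. DESeq2, which called 8.81% of all genes there, gave 0.69 (adjusted p = 0.0103), and over all alternatives the adjusted p was between 0.0103 and 0.227. In DF versus TFD the value was 0.86 (SE 0.22, adjusted p = 0.138), and DESeq2 called it (0.83, adjusted p = 0.0183). Lif, the neighbour of Osm on chromosome 11 and another ligand of gp130, starts 20.8 kb away and gave 0.18 in DF, −0.02 in TF and −0.16 in TFD on the log2 scale, none of which passed the test.

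Late neutrophil markers were read beside the ligand genes. Summed over the 8 of 9 markers in the table, led in abundance by S100a9 and S100a8, they stood at 44150 to 55380 CPM in WT, 51920 to 72980 in DF, 32860 to 42030 in TF and 18910 to 40360 in TFD. None of the 8 was called in DF, 2 were called lower in TF (Mmp8 and Cxcr2, log2 fold changes −0.74 and −1.18) and 1 in TFD (Cxcr2, −0.96), where 15.6% and 11.6% of all genes were called lower. None was at 0 in all libraries of a genotype. Ly6g was not analysed here. The part of these cells in the levels of Il6 and Osm was not tested. In whole BM, fewer cells of a type and less RNA per cell cannot be told apart.

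**Figure D2:**
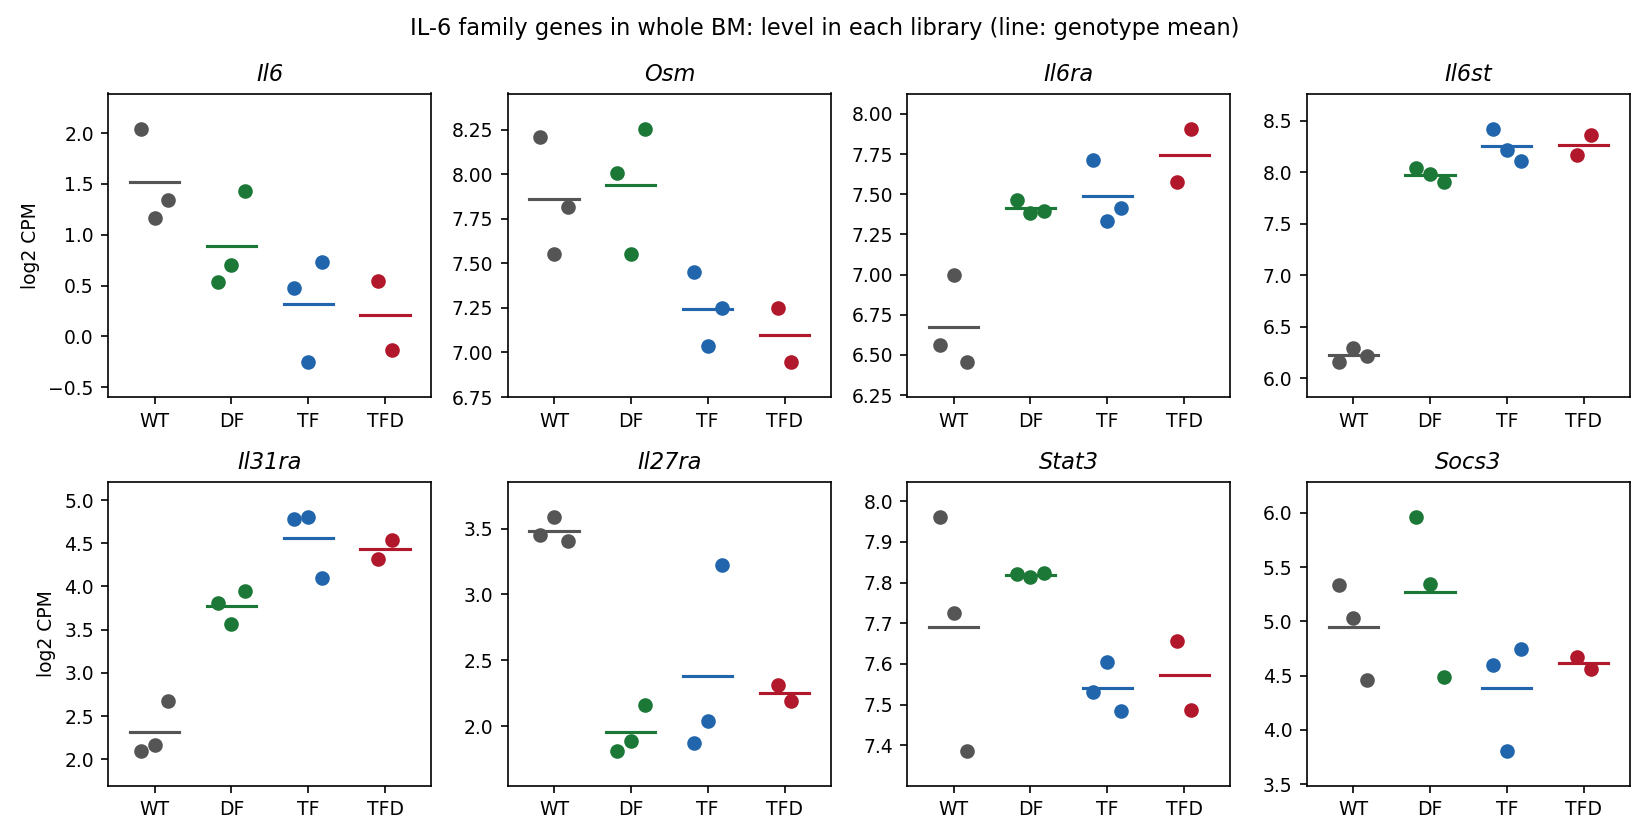
Level of each of the 8 genes in log2 CPM (y axis, scaled per gene) in every library of WT, DF, TF and TFD, with a line at the mean of the genotype. All mutant libraries of Il6ra, Il6st and Il31ra lie above the 3 WT libraries and all of Il27ra below them, with TF replicate 3 of Il27ra at 3.22, near the lowest WT value of 3.40.

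Among the receptors, Il6st showed the most separated levels. Il6st (chromosome 13, 112464070 to 112506860, plus strand) encodes gp130. Its level was 6.16, 6.30 and 6.22 log2 CPM in WT, 8.04, 7.98 and 7.91 in DF mice, 8.43, 8.21 and 8.11 in TF mice, and 8.17 and 8.36 in TFD mice. The highest WT library and the lowest mutant library were 1.61 apart on this scale. Il6st was upregulated 3.38-fold in DF (log2 fold change 1.75, SE 0.11, adjusted p = 1.79e-06), 4.09-fold in TF (2.03, SE 0.11, adjusted p = 2.76e-07) and 4.13-fold in TFD (2.05, SE 0.12, adjusted p = 6.36e-07). The mean level was 6.22 in WT and 7.98 in DF, and reached 8.25 in TF and 8.27 in TFD, but only the step from WT passed the test. The DF versus TF difference was −0.28 (95% interval −0.50 to −0.05, adjusted p = 0.153), the DF versus TFD difference −0.29 (−0.54 to −0.04, adjusted p = 0.288), and the TF versus TFD difference −0.01 (−0.26 to 0.24, adjusted p = 0.986).

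Il31ra (chromosome 13, 112522807 to 112580662, minus strand) encodes the IL-31 receptor chain, which resembles gp130 but pairs with the OSM receptor. Its level was 2.10, 2.16 and 2.67 log2 CPM in WT, 3.81, 3.57 and 3.95 in DF, 4.78, 4.80 and 4.09 in TF, and 4.32 and 4.54 in TFD, from 36 to 341 reads. DF libraries stood between WT and the other mutants, with no overlap between WT, DF and the TF or TFD libraries. How many of all genes were so separated between mutant genotypes was not counted. Il31ra was upregulated 2.71-fold in DF (log2 fold change 1.44, SE 0.23, adjusted p = 0.000394), 4.78-fold in TF (2.26, SE 0.22, adjusted p = 1.85e-05) and 4.26-fold in TFD (2.09, SE 0.24, adjusted p = 7.13e-05). Il31ra was the 1 gene of the 8 that edgeR called between mutant genotypes (DESeq2 also called Osm, as given above): it was 1.76-fold lower in DF than in TF (−0.82, SE 0.20, adjusted p = 0.0344), where 1.67% of all genes were called higher in DF and 4.27% lower. That call was lost without any 1 of the DF libraries or of TF replicates 1 and 2, with log2 fold changes from −0.93 to −0.70 and adjusted p values from 0.0662 to 0.155. It was also lost with the replicate number as a block (−0.82, adjusted p = 0.0577). With library totals, the split of all genes called in DF versus TF was 106 higher and 659 lower, and with offsets for gene length 342 and 503, where TMM factors gave 203 and 520.

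Il6st and Il31ra are neighbours and are transcribed towards each other, the lower coordinate of Il31ra lying 58.7 kb from that of Il6st. No other gene tested within 500 kb was called higher in any mutant genotype. All the other genes found in that window lay on the side of higher coordinates. Ddx4, the next gene beyond Il31ra and known for its role in germ cells, was downregulated, with log2 fold changes of −3.23 in DF, −3.12 in TF and −2.58 in TFD (adjusted p = 0.000706, 0.00114 and 0.0063). Its level was low already in WT, with a mean of 1.20 log2 CPM, so these folds rest on few reads. Ppap2a, a lipid phosphatase gene 337 kb away, was also lower, by −4.34, −1.57 and −2.37 (adjusted p = 4.65e-05, 0.00843 and 0.00307). Slc38a9 was lower in DF (−0.53, adjusted p = 0.00639) and Dhx29 in TF (−0.48, adjusted p = 0.00666), and Skiv2l2 passed in none, with −0.37, −0.39 and −0.31. These neighbours were chosen for their position only.

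**Figure D3:**
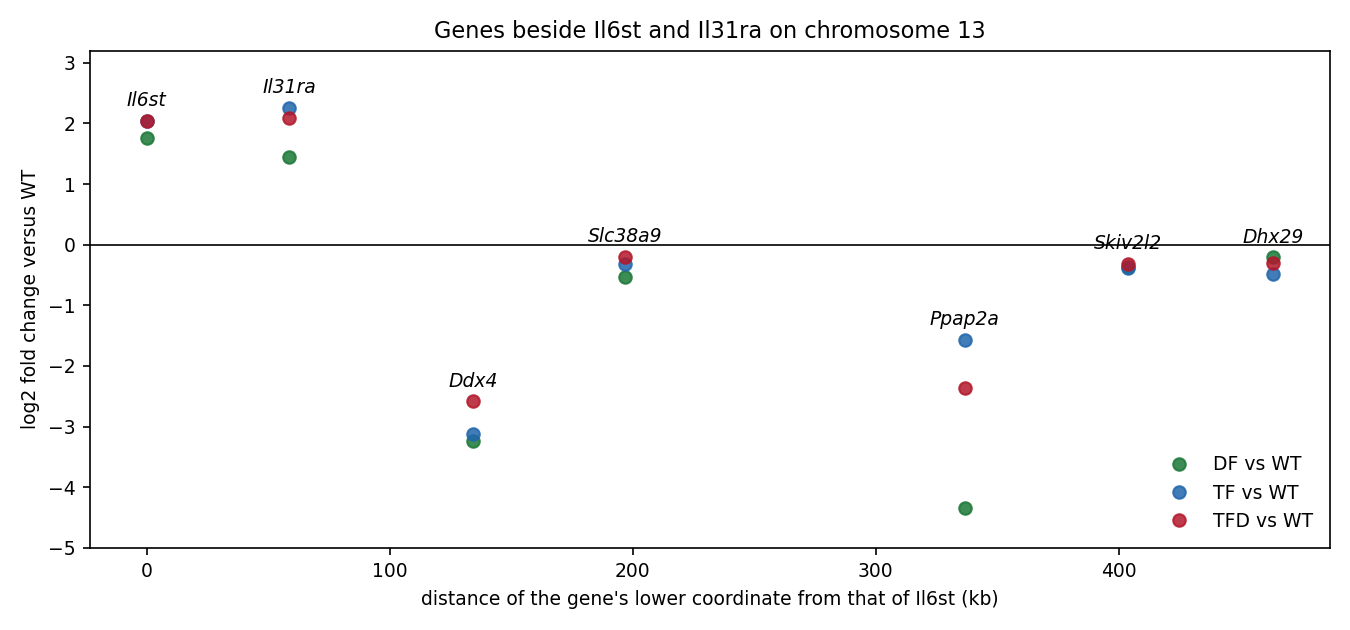
Log2 fold change versus WT (y axis) of the genes tested within 500 kb of Il6st, against the distance of the gene's lower coordinate from that of Il6st in kb (x axis), for DF, TF and TFD. Il6st and Il31ra, whose lower coordinates are 58.7 kb apart, lie above 1.4 in each comparison, and the 5 genes beyond them lie below 0.

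Il6ra (chromosome 3, 89869324 to 89913162, minus strand) encodes the chain that binds IL-6. Its level was 6.56, 6.998 and 6.46 log2 CPM in WT, 7.46, 7.38 and 7.40 in DF mice, 7.71, 7.33 and 7.42 in TF mice, and 7.58 and 7.91 in TFD mice. All 8 mutant libraries lay above the highest WT library, by at least 0.34. Il6ra was upregulated 1.65-fold in DF (log2 fold change 0.73, SE 0.15, adjusted p = 0.00257), 1.75-fold in TF (0.81, SE 0.15, adjusted p = 0.00153) and 2.09-fold in TFD (1.06, SE 0.16, adjusted p = 0.000582). TFD had the highest mean at 7.74, and its differences from DF (DF minus TFD −0.34, 95% interval −0.70 to 0.02) and from TF (TF minus TFD −0.26, −0.61 to 0.10) did not pass the test. Exons of Gm42809, annotated on the opposite strand in GENCODE vM21, share 208 bases with those of Il6ra. The strand setting of the counting is not given in the sources used here, so reads there may come from either gene.

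The calls of Il6st, Il31ra and Il6ra against WT held in each alternative and with each library left out. For Il6ra in DF, where the adjusted p came nearest to the threshold, it was between 0.000154 and 0.0195. Over all genes tested, 16.1% had all 8 mutant libraries above all 3 WT libraries, as these 3 genes did. Monocyte markers moved with them: 6 of 6 were called higher in DF and in TF and 5 of 6 in TFD, beside 21.0%, 19.0% and 14.7% of all genes. The most abundant were Fn1 (log2 fold changes 2.12, 1.65 and 2.15) and F13a1 (1.70, 1.34 and 1.54). The summed level of the 6 markers was 1961 to 2309 CPM in WT, 7209 to 8142 in DF, 5550 to 7718 in TF and 6801 to 7530 in TFD, and none was at 0 in all libraries of a genotype. Other lists also held genes called higher in DF, TF and TFD: early granulocyte markers for 4, 1 and 2 of 4, and progenitor markers for 2, 1 and 2 of 5. The part of monocytes and of these other cells in the receptor levels was not tested.

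Il27ra (chromosome 8, 84030286 to 84042575, minus strand), which encodes the IL-27 receptor chain that pairs with gp130 and is best known in T cells, moved the other way. Its level was 3.45, 3.59 and 3.40 log2 CPM in WT, 1.81, 1.88 and 2.16 in DF mice, 1.87, 2.04 and 3.22 in TF mice, and 2.31 and 2.19 in TFD mice, from 44 to 133 reads. All 8 mutant libraries lay below the lowest WT library, as was the case for 11.8% of all genes tested, but TF replicate 3 lay close to it. Il27ra was downregulated 2.89-fold in DF (log2 fold change −1.53, SE 0.30, adjusted p = 0.00178), 1.98-fold in TF (−0.98, SE 0.29, adjusted p = 0.0204) and 2.34-fold in TFD (−1.23, SE 0.33, adjusted p = 0.0168). Without TF replicate 3 the value in TF was −1.53 (adjusted p = 8.89e-05). The call in TF was lost without WT replicate 2 (−0.93, adjusted p = 0.0632), TF replicate 1 (−0.74, adjusted p = 0.0834) or TF replicate 2 (−0.79, adjusted p = 0.0787), and that in TFD without TFD replicate 1 (−1.29, adjusted p = 0.0692) or TFD replicate 2 (−1.17, adjusted p = 0.082). Its exons share 10 bases with those of Palm3 on the opposite strand.

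Lymphoid markers were read beside Il27ra. Of 7 T cell markers, led in abundance by Lck and Cd4, 5 were called lower in DF, 2 in TF and 4 in TFD, beside 16.6%, 15.6% and 11.6% of all genes. The sum of the T cell markers was 50.4, 50.5 and 57.4 CPM in WT, 17.2, 17.6 and 28.2 in DF mice, 27.3, 24.9 and 58.9 in TF mice, and 21.1 and 15.2 in TFD mice. TF replicate 3, which was highest among the mutants for Il27ra, was so for this sum and for the 4 NK cell markers, led in abundance by Klrd1, whose sum was 39.9 CPM there against 20.8 to 24.6 in WT and 6.99 to 19.8 in the other mutant libraries. TF replicate 3 also had the highest mutant sums of B cell (76.9 CPM), erythroid (1232 CPM) and plasma cell markers (853 CPM). Its sums of monocyte (5550 CPM) and progenitor markers (161 CPM) were the lowest among the mutants, and it held 10000 or more Xist reads. Beside the same shares of all genes, NK cell markers were called lower for 3 of 4 in DF and in TF and 2 of 4 in TFD, and Klrd1 was higher in TF by 1.55 on the log2 scale. All 8 B cell markers, led in abundance by Cd79b and Ms4a1, were lower in each genotype, from 435.6 to 524.7 CPM in WT to at most 76.9 in any mutant library, and none of the markers of these lists was at 0 in all libraries of a genotype. The part of these cells in the level of Il27ra was not tested.

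The level of the ligand-binding chain relative to the signalling chain was compared within each library, as the ratio of the RPKM values of Il6ra and Il6st, which takes gene length into account and does not depend on library scaling. The ratio was 2.16, 2.65 and 1.92 in WT, 1.09, 1.08 and 1.14 in DF mice, 0.994, 0.887 and 1.005 in TF mice, and 1.08 and 1.19 in TFD mice. Each WT library had a ratio of at least 1.92, and no mutant library exceeded 1.19. The mean log2 ratio was 1.08 lower in the 8 mutant libraries than in the 3 WT libraries, a 2.11-fold lower ratio, and no other choice of 3 of the 11 libraries gave as large a difference (two-sided exact permutation, p = 0.00606, which is the lowest possible with this number of libraries; adjusted p = 0.0121 over the 2 ratios tested). Without any 1 library the difference stayed between −1.18 and −0.95.

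**Figure D4:**
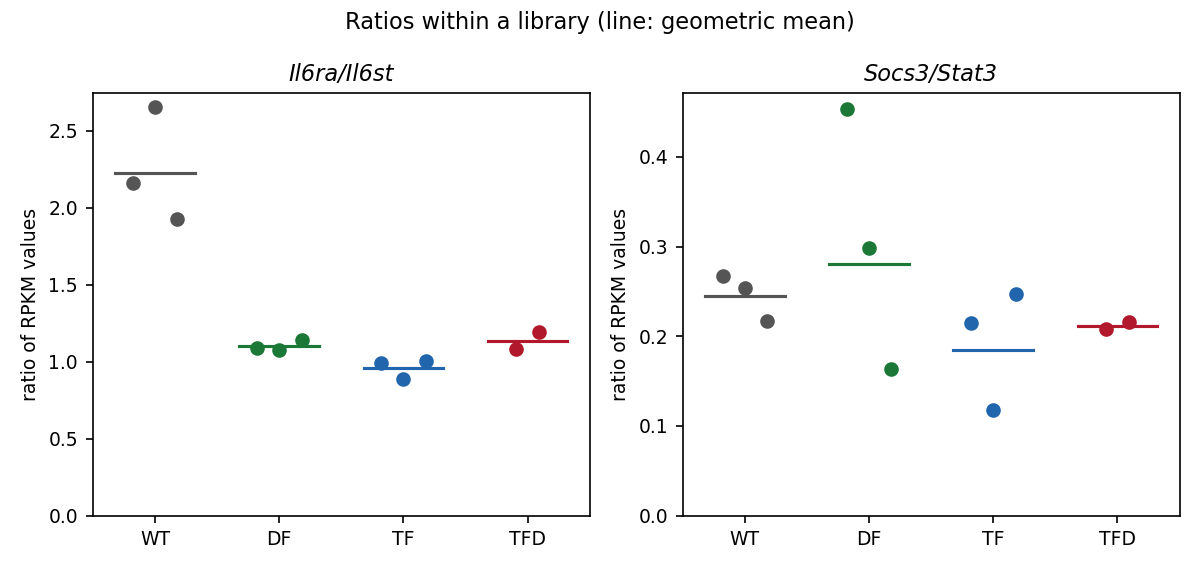
Ratio of RPKM values within each library (y axis, from 0) for Il6ra over Il6st on the left and Socs3 over Stat3 on the right, by genotype, with a line at the geometric mean. The Il6ra to Il6st ratio is 1.92 to 2.65 in WT and at most 1.19 in the mutants, while the Socs3 to Stat3 ratio of DF spans 0.16 to 0.45 and covers that of WT.

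Downstream of the receptors, neither Stat3 nor Socs3 was called in any comparison. Stat3 (chromosome 11, 100886810 to 100939511, minus strand) encodes the main transcription factor of the pathway, which is switched on by phosphorylation. Its level was 7.96, 7.73 and 7.39 log2 CPM in WT, 7.82, 7.81 and 7.82 in DF mice, 7.53, 7.61 and 7.48 in TF mice, and 7.66 and 7.49 in TFD mice. All mutant libraries lay within the range of WT. Its log2 fold change was 0.11 in DF (95% interval −0.17 to 0.38), −0.17 in TF (−0.44 to 0.10) and −0.14 in TFD (−0.44 to 0.17), and without WT replicate 3 the value in TF was −0.32 (adjusted p = 0.049).

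Socs3 (chromosome 11, 117966087 to 117969366, minus strand) encodes the feedback inhibitor and varied widely among libraries of 1 genotype. Its level was 5.34, 5.03 and 4.46 log2 CPM in WT, 5.96, 5.35 and 4.49 in DF mice, 4.60, 3.81 and 4.75 in TF mice, and 4.67 and 4.56 in TFD mice. DF replicate 1 was the highest library and TF replicate 2 the lowest, and the ranges of all genotypes overlapped that of WT. The log2 fold change was 0.40 in DF (95% interval −0.30 to 1.10), −0.55 in TF (−1.27 to 0.17) and −0.37 in TFD (−1.17 to 0.43). In DF versus TF it was 0.96 (SE 0.33, adjusted p = 0.116). The ratio of Socs3 to Stat3 was 0.27, 0.25 and 0.22 in WT, 0.45, 0.30 and 0.16 in DF mice, 0.22, 0.12 and 0.25 in TF mice, and 0.21 and 0.22 in TFD mice, and its mean log2 value was 0.13 lower in mutants (two-sided exact permutation test, p = 0.679; adjusted p = 0.679).

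Between the mutants, none of the 8 genes was called in DF versus TFD or in TF versus TFD by edgeR. Of all genes tested, 0% were called in either direction in DF versus TFD, and 0.00821% in each direction in TF versus TFD. At an unadjusted p under 0.05, DF versus TFD had 3 of the 8 genes (Osm, Il6st and Il31ra) where 14.2% of all genes passed, and TF versus TFD had 0 where 8.77% passed. DESeq2 called 1, Osm, in DF versus TFD and 0 in TF versus TFD, beside 2.12% and 1.10% of all genes with an adjusted p.

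The other genes of the pathway were read from lists of ligands, receptors, kinases and STATs, adaptors, inhibitors, shedding proteases, STAT3 targets and related receptors. Of 50 genes listed beside the 8, 41 were in the table and 40 were tested. In DF, 9 were called higher and 6 lower, in TF 7 and 7, and in TFD 4 and 6, and the median log2 fold changes were 0.10, 0.04 and 0.10. These shares lay near those of all genes: 22.5% higher and 15% lower in DF beside 21.0% and 16.6%, 17.5% each in TF beside 19.0% and 15.6%, and 10% and 15% in TFD beside 14.7% and 11.6%. Among 6 ligand genes, Il6 and Osm included, none was called higher. Clcf1, which encodes a ligand of the CNTF receptor and gp130, was downregulated with log2 fold changes of −1.85 in DF, −1.53 in TF and −2.00 in TFD (adjusted p = 0.000483, 0.00184 and 0.00126). Of 6 receptor genes, of which Il6ra, Il6st, Il31ra and Il27ra were described above, 4 were called higher and 1 lower in DF, and 3 and 1 in TF and in TFD. Il11ra1, the IL-11 receptor chain, was higher in DF by 1.38 (adjusted p = 0.0183), had values of 0.25 in TF and 1.13 in TFD, and its adjusted p in DF reached 0.0722 with a library left out. In TFD it was called in 3 of 19 alternatives, such as with only the groups compared (1.12, adjusted p = 0.00446). In TF it was called without TF replicate 3 (0.68, adjusted p = 0.0308), and its sign changed in 2 alternatives. Osmr, Cntfr, Il11, Il31, Cntf, Ctf1, Ctf2, Il23r and Rhbdf1 were not analysed here.

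Of the 3 receptor-bound kinases tested, Tyk2 was called higher and Jak1 lower in each genotype, and Jak2 had −0.13 in DF, 0.37 in TF and 0.23 in TFD (adjusted p = 0.534, 0.074 and 0.35). Tyk2 was upregulated by 0.72 in DF, 0.73 in TF and 0.98 in TFD on the log2 scale (adjusted p = 0.000139, 0.00017 and 5.25e-05), and Jak1, the kinase that gp130 signalling depends on most, was downregulated by −0.50, −0.58 and −0.50 (adjusted p = 0.00655, 0.00307 and 0.0173). The Jak1 call in TFD was lost without WT replicate 2, TFD replicate 1 or TFD replicate 2 (adjusted p = 0.0571, 0.0527 and 0.0944). Among the adaptors, which link the receptors to SHP2 and the MAP kinase cascade, Gab2 was upregulated by 0.86, 0.80 and 1.10 (adjusted p = 0.00102, 0.00191 and 0.000562). Gab1 was lower in DF (−1.17, adjusted p = 0.000299) and TF (−0.67, adjusted p = 0.0101), and had −0.53 in TFD. Of 6 inhibitor genes, 1 was called in each genotype, Ptpn6 in DF and TF and Socs1, named after its value was seen, in TFD (−1.03, adjusted p = 0.0457). Ptpn6, which encodes the phosphatase SHP1, was higher in DF by 0.62 (adjusted p = 0.00233) and in TF by 0.53 (adjusted p = 0.006). Of 3 shedding genes, Adam10, a protease that releases soluble IL-6Rα, was lower in DF (−0.36, adjusted p = 0.0435) and TF (−0.45, adjusted p = 0.0175), with adjusted p values up to 0.136 and 0.074 over the alternatives. In TFD Adam10 had −0.37 (adjusted p = 0.0735), and DESeq2 called it there (−0.39, adjusted p = 0.0396).

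**Figure D5:**
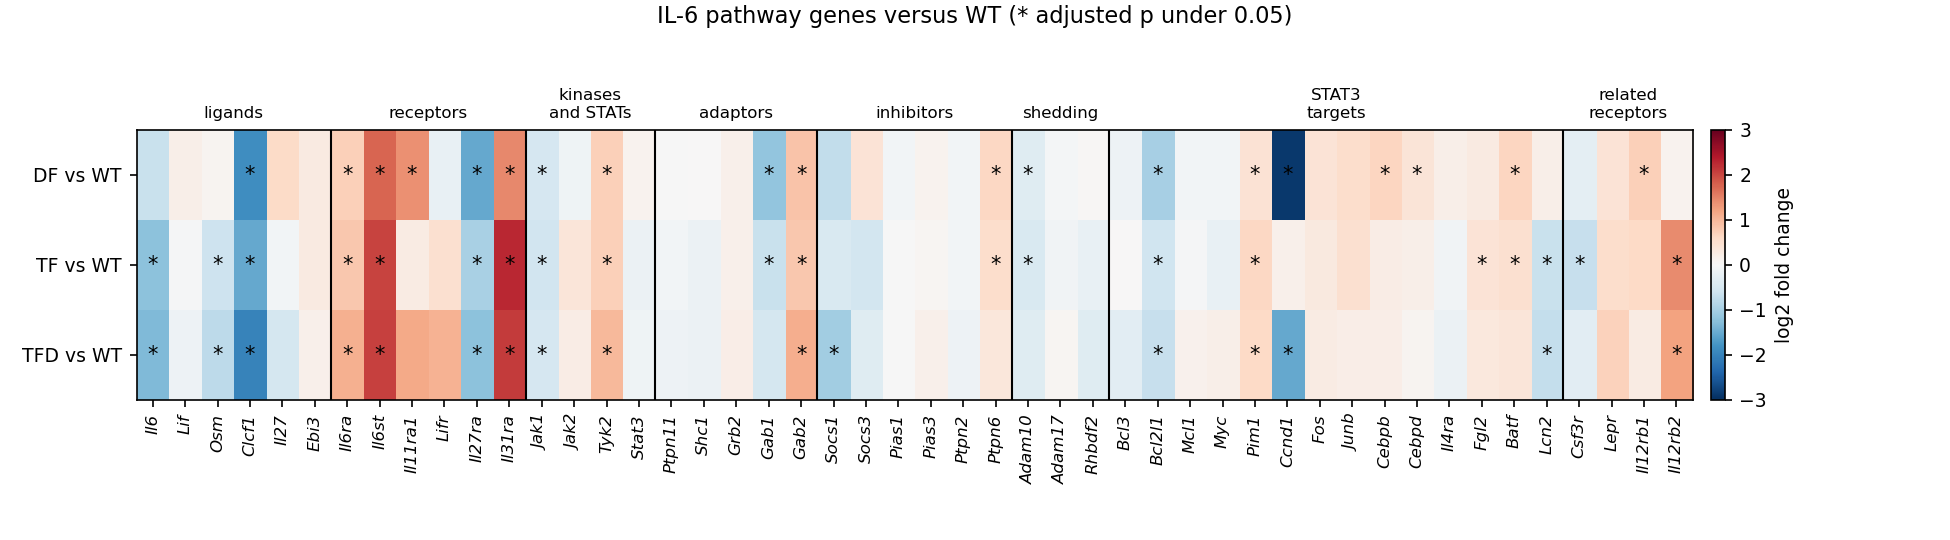
Log2 fold change versus WT (colour) of each pathway gene tested (columns, grouped by role) in DF, TF and TFD (rows), with an asterisk where the adjusted p was under 0.05; the colour scale ends at 3 in either direction. The receptor columns Il6ra, Il6st and Il31ra are red in all 3 rows, while STAT3 targets show both colours.

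Genes known as STAT3 targets were called in both directions. Of 14 tested, 4 were called higher and 2 lower in DF, 3 and 2 in TF, and 1 and 3 in TFD, with medians of 0.22, 0.16 and 0.15. Over all genes 21.0% and 16.6%, 19.0% and 15.6%, and 14.7% and 11.6% were called higher and lower in these comparisons. The shares of the 14 targets were 28.6% and 14.3% in DF, 21.4% and 14.3% in TF, and 7.14% and 21.4% in TFD. The genes called higher were Pim1, Batf, Cebpb and Cebpd in DF, Pim1, Batf and Fgl2 in TF, and Pim1 in TFD, and those called lower were Bcl2l1 with Ccnd1 in DF, with Lcn2 in TF and with both in TFD. Batf, Cebpb, Cebpd and Fgl2 are named after their values were seen. Pim1, a survival kinase, was upregulated by 0.44, 0.63 and 0.60 (adjusted p = 0.0443, 0.00887 and 0.0227), and over the alternatives its adjusted p reached 0.198 in DF and 0.186 in TFD. Bcl2l1, which encodes the survival protein BCL-XL and is also high in erythroid cells, was downregulated, with values of −0.9997, −0.60 and −0.68 (adjusted p = 0.000465, 0.0115 and 0.014), and reached 0.0568 in TF and 0.107 in TFD. Of 6 erythroid markers, led in abundance by Tfrc and Slc4a1, 6 were lower in DF and 5 in TF and in TFD, with sums of 1160 to 1505 CPM in WT, 277.2 to 406.7 in DF, 487.6 to 1232 in TF and 449.4 to 564.4 in TFD, and the part of these cells in the level of Bcl2l1 was not tested.

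Beside Il31ra, 3 pathway genes were called between DF and TF, 1 higher and 2 lower, beside 1.67% and 4.27% of all genes. Ccnd1, the cyclin D1 gene, was lower in DF by −3.03 (SE 0.49, adjusted p = 0.00486); against WT it had −2.89 in DF (adjusted p = 0.000692), 0.14 in TF and −1.53 in TFD (adjusted p = 0.0434, and up to 0.272 over the alternatives). Of 4 related receptors tested, Il12rb1 was called higher in DF, Il12rb2 higher in TF and TFD, and Csf3r lower in TF. Il12rb2, a receptor chain of IL-12 related to gp130, was lower in DF than in TF by −1.33 (adjusted p = 0.01, and −1.16 with an adjusted p of 0.0685 without DF replicate 2), with values against WT of 0.10 in DF, 1.43 in TF and 1.21 in TFD (adjusted p = 0.00115 for TF, 0.00625 for TFD). Lcn2, a gene of neutrophil granules that STAT3 also induces, stood 0.84 higher on the log2 scale in DF than in TF (adjusted p = 0.033, and up to 0.149 over the alternatives), with values against WT of 0.18 in DF, −0.66 in TF and −0.73 in TFD (adjusted p = 0.0249 for TF, 0.0356 for TFD). The Lcn2 call in TF was lost without WT replicate 1 or 2 or any 1 of the TF libraries (adjusted p up to 0.101), and that in TFD without WT replicate 1 or 2, DF replicate 2 or TFD replicate 2 (without the last −0.39, adjusted p = 0.26) and with only these groups fitted (adjusted p = 0.0731). Macrophage markers differed between the same genotypes: 6 of 7, Mrc1 among them, were called lower in DF than in TF, and the sums were 174 to 221.4 CPM in DF, 280.9 to 429.8 in TF and 152.1 to 223.5 in WT. The members of this list differed among themselves: in DF versus WT, Cd163, Mertk, C1qa, C1qb and C1qc were lower (log2 fold changes −2.27, −2.33, −2.34, −2.00 and −1.99), Adgre1 was higher (0.93) and Mrc1 had 0.46, and in TF versus WT Mrc1 (1.73) and Adgre1 (1.11) were called higher and none lower. Other markers also differed between DF and TF: 5 of 6 erythroid and 3 of 3 plasma cell markers were called lower in DF, and 1 of 4 early granulocyte markers higher. The part of any of these cells in these 4 differences was not tested.

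Genes whose levels ran most like those of 4 members were found among the 12174 other genes by the root mean square difference of log2 CPM, centred per gene, over the 11 libraries. For Il6st these were Itgb7, Ptpro and Apba1, with differences of 0.11 each, where the median over all genes was 0.89. For Il6ra they were Dnase1l1, Luzp1 and Arhgap26 (0.12 to 0.13, median 0.49). For Il31ra they were Epb4.1l4b, E230016K23Rik and Tspan17 (0.19 to 0.24, median 0.96). For Il6 they were Il1r2, the decoy receptor of IL-1, Ets2 and Ltb (0.18 to 0.28, median 0.70). The points share the library, its depth and its mix of cells, so these are descriptions only.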

How the data were processed

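RNA from whole BM was sequenced from TruSeq Stranded Total RNA libraries after globin depletion. The authors aligned the reads with STAR (mm10), used the unique alignments for counting by featureCounts on the refGene annotation, and removed genes unless over 3 samples exceeded 0.5 CPM (tool versions and the strand setting are not given in the sources used here). The table the authors deposited holds raw counts, log2 CPM values and the gene length, another kind of column. The log2 values equal edgeR's TMM-scaled CPM with a prior count of 0.25 to within 5e-09. TFD replicate 3 was not analysed here. RPKM was computed here from these CPM values and the deposited lengths.

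Samples were grouped by their labels. Counts of 12175 genes (24 of 12199 failed the filter again in the 11 libraries) were tested with edgeR 4.0.16 in R 4.3.3, by the quasi-likelihood F test with TMM factors and 1 mean per genotype over all 4 genotypes, with Benjamini-Hochberg adjustment over all genes. The study's methods name DESeq2, which was an alternative here (1.42.0). The 2 ratios were tested by exact permutation over 165 choices of the WT libraries. The share of all genes whose libraries did not overlap was counted only for all mutant libraries against all WT libraries. Precision is limited by 2 or 3 mice per genotype; totals ranged from 8274153 to 15900904 counts.

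The members and gene lists were chosen with earlier results of these data known. Named genes are the 8 members, pathway genes called in one direction in all mutants, the gene of each list with the smallest adjusted p, pathway genes called between mutants, the 2 most abundant markers of lists described, and the 3 genes most alike to 4 members. Neighbours were named by position. Other genes named, such as Jak2, Il12rb1, Csf3r, Mmp8 and Cxcr2, fall outside this rule and were named with their values known. Some listed genes are not reported here and were left out of the counts of their lists. Lists of megakaryocyte, plasma cell, progenitor, basophil, stromal, endothelial and early granulocyte markers were also computed, and their results stand in the closing section. Alternatives were DESeq2, library totals, RLE factors, no filter, only the groups compared, the replicate number as a block, a covariate marking the libraries that had 10000 or more Xist reads, loess offsets (span 0.3) on gene length, and each library left out. On simulated counts for DF versus WT with 12175 genes, edgeR recovered 87 of 100 genes changed 2-fold and 99 of 100 changed 4-fold, with 4 false calls, and DESeq2 87 and 99 with 12. The changed genes were drawn only from genes above a minimum mean count, which Il6 did not reach. All other genes were left unchanged, so these rates do not carry over to genes with few reads or to data with many changes. Sequences are from RefSeq (GRCm38.p6). Figures were drawn with matplotlib.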

Additional observations from a re-analysis of the deposited data

Results flagged for a closer look

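Among the 8 genes and the 40 other pathway genes tested, 4 passed the direct test between DF and TF, 1 higher and 3 lower in DF, where 1.67% of all genes were called higher and 4.27% lower. Il31ra differed by −0.82, Ccnd1 by −3.03, Lcn2 by 0.84 and Il12rb2 by −1.33 (log2 fold change, DF versus TF, edgeR). With some single libraries left out, the calls of Il31ra, Lcn2 and Il12rb2 were lost (adjusted p up to 0.155, 0.149 and 0.0685). All 3 DF libraries lay below the 3 TF libraries for Il31ra, and how many of all genes were so separated was not counted. Groups of 2 or 3 libraries are too small for a check of single outlying samples.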

How the results depend on the processing

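The calls of Il6st, Il31ra and Il6ra in DF, TF and TFD versus WT, of Il27ra in DF versus WT, and the difference in the Il6ra to Il6st ratio held in each alternative. DESeq2 called 2 of the 8 genes in DF versus TF (Osm beside Il31ra) and 1 in DF versus TFD (Osm), and offsets for gene length called 2 in DF versus TF. With libraries left out, 3 to 7 genes were called in TF versus WT (3 without TF replicate 2), 3 to 6 in TFD versus WT (3 without TFD replicate 2) and 0 to 2 in DF versus TF, with no cause tested beyond the smaller number of samples. In the same fits 2855 to 4523 of all genes were called in TF versus WT and 2361 to 3482 in TFD versus WT, where all libraries gave 4216 and 3205. The count of all genes called was 0 in DF versus TFD by edgeR, with 1727 at an unadjusted p under 0.05, and 258 by DESeq2, 135 with only these groups fitted and 42 with the block, and 0 to 384 with a library left out (384 without TFD replicate 1). In TF versus TFD it was 2, against 131 by DESeq2, 0 with only these groups and 22 with the Xist covariate, and 2 to 76 with a library left out (76 without TFD replicate 1). In DF versus TF it was 723 and fell to 169 without DF replicate 2.

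Values that changed sign were small in at least one of the settings. Library totals gave Osm −0.019 in DF versus WT, the Xist covariate gave Ccnd1 −0.036 in TF versus WT, and length offsets gave Il6 −0.029 and Il6st 0.029 in TF versus TFD. With libraries left out, DF versus WT ran from −0.12 to 0.25 for Osm, −0.067 to 0.22 for Stat3, −0.016 to 0.67 for Socs3, −0.0082 to 0.30 for Lcn2 and −0.23 to 0.26 for Il12rb2. TF versus WT ran from −0.060 to 0.68 for Il11ra1 and −0.50 to 0.44 for Ccnd1, TFD versus WT from −0.28 to 0.0089 for Stat3, and DF versus TF from −0.16 to 0.038 for Il6ra. TF versus TFD ran from −0.19 to 0.51 for Il6, −0.0062 to 0.31 for Osm, −0.11 to 0.074 for Il6st, −0.30 to 0.49 for Il27ra, −0.13 to 0.055 for Stat3 and −0.36 to 0.055 for Socs3. The cause of these changes was not tested.

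The replicate numbers were not found to pair the samples: samples sharing a number had correlations from −0.30 to 0.25, and 3 of 15 were over 0.1. With the replicate number as a block, Il6st was 0.021 and Stat3 0.028 in TF versus TFD, Il6 in TFD versus WT was −1.23 (adjusted p = 0.0548), Osm in DF versus TF 0.70 (adjusted p = 0.0119) and Il31ra in DF versus TF −0.82 (adjusted p = 0.0577), and Ccnd1 (−1.48, adjusted p = 0.0808) and Lcn2 (−0.76, adjusted p = 0.0522) in TFD versus WT and Lcn2 in DF versus TF (0.84, adjusted p = 0.0515) lost their calls. No other call changed among the IL-6 family genes and Clcf1, Il11ra1, Jak1, Tyk2, Gab1, Gab2, Ptpn6, Adam10, Bcl2l1, Pim1, Ccnd1, Lcn2 and Il12rb2. The calls of Socs1, Batf, Cebpb, Cebpd, Fgl2, Il12rb1 and Csf3r were not followed through the alternatives. Of the IL-6 family genes followed, depth limits Il6, with 10 to 50 reads, and Il27ra and Il31ra most. Among the other pathway genes, Clcf1 (15 to 98 reads), Il12rb1 (15 to 42), Socs1 (19 to 52) and Lif (14 to 35) also had few.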

Other observations

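Cell type markers that no result above turned on also differed between genotypes. Versus WT, 21.0%, 19.0% and 14.7% of all genes were called higher in DF, TF and TFD, and 16.6%, 15.6% and 11.6% lower. Early granulocyte markers, led in abundance by Mpo and Prtn3, were higher for 4 of 4 in DF, for Ctsg in TF and for Mpo and Ctsg in TFD, with sums of 2813 to 2959 CPM in WT and 4457 to 6109 in DF. Of 5 progenitor markers, led in abundance by Cd34 and Kit, Cd34 was higher in each mutant genotype (log2 fold changes 1.96, 1.86 and 1.79) and Meis1 in DF and TFD. All 3 plasma cell markers, led in abundance by Jchain and Sdc1, were lower in DF and TFD and Mzb1 in TF. Of 4 megakaryocyte markers, led in abundance by Itga2b and Pf4, Pf4 was lower in DF. Of 5 basophil and mast cell markers, led in abundance by Prss34 and Mcpt8, Cpa3, Ms4a2 and Fcer1a were lower in TF. Of 6 stromal markers, led in abundance by Cxcl12 and Col1a2, Pdgfrb was higher in each mutant genotype and Col3a1 in DF, and of the endothelial markers Kdr and Cdh5, Cdh5 was lower in DF. Pdgfra, Emcn and Tek were not analysed here.

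Xist reads numbered 10000 or more in WT replicate 3, TF replicate 3 and TFD replicate 2, and at most 538 in the other libraries, so DF holds no library with a high Xist count.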
